A study of Mus musculus with 4 samples.

Results

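The unproductive rearrangements described here are T cell receptor beta (TRB) transcripts that carried a V and a J segment but were not called productive. They were taken from the contig tables of single-cell V(D)J libraries as every TRB contig with both segments named and a productive call other than true. A contig is 1 assembled transcript of 1 cell barcode, and its depth is its number of unique molecular identifiers (UMIs), each standing for 1 captured molecule. Of 23855 contigs in all, 2255 met the rule, beside 7656 productive TRB contigs with V and J. The autonomy library held 1660 unproductive contigs in 1474 barcodes, of 11821 contigs in 4226 barcodes, and the turnover library held 595 in 568 barcodes, of 12034 contigs in 4273 barcodes. A distinct chain is a distinct combination of V, J and CDR3 nucleotide sequence, the CDR3 being the stretch across the V-D-J junction. No CDR3 was given for 932 autonomy and 325 turnover contigs, which were counted by V and J alone. Together these made 324 distinct unproductive chains in autonomy and 417 in turnover, of which 197 and 270 had a CDR3. Every productive contig had a CDR3. Counts over distinct chains below therefore hold V and J pairs without a CDR3, each counted once, on the unproductive side alone.

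The study grafted wild type mouse thymi, recovered the thymocytes 28 days after transplant, and compared a condition named autonomy with one named turnover. In thymus autonomy, resident thymocytes keep up production of T cells without input from the bone marrow, while in turnover incoming progenitors replace them. The labels give the sorted cells as DN3-DN4, ISP (immature single positive) and double positive thymocytes, the stages from beta chain rearrangement to coreceptor expression. Both conditions were measured by a single library for gene expression and a single one for V(D)J transcripts. The labels used here give neither the genotype, strain and age of the hosts nor the number of animals pooled. With 1 library per condition no difference between the conditions has a replicate check and none was tested. Every interval below is an exact binomial 95% interval for a share, or a 95% interval for a ratio, and covers counting error only. Cells of 1 clone share their chains and are not independent draws.

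A thymocyte first joins a D to a J segment at the TRB locus and then a V segment to the DJ. Bases are trimmed and added at each joint, so many joints shift the reading frame between V and J or create a stop codon. A cell with a failed joint on one chromosome can rearrange the other, and a productive beta chain, paired with the pre-T alpha protein, drives the step from the DN3 stage to double positive cells and the proliferation that goes with it. Transcripts with an early stop are usually kept at low levels by nonsense-mediated decay. A failed rearrangement stays in the genome of all descendants of the cell, so it can mark a lineage beside the productive chain.

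Unproductive chains found in many barcodes, all in the autonomy library, are shown because the sharing and partner results below turn on them. Sequences are the CDR3 bases of the deposited contig tables, 5′ to 3′, and capitals mark the first stop codon in the reading frame of the V segment.
TRBV4–TRBJ2-3 in 182 barcodes: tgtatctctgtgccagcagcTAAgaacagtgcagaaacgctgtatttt
TRBV15–TRBJ2-7 in 63 barcodes: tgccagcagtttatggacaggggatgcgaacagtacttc
TRBV20–TRBJ1-2 in 13 barcodes: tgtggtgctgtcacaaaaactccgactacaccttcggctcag

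The next set shows in-frame junctions of contigs called unproductive. In all of them V and J are in frame with each other; the first 3 have a stop codon (capitals) where the last bases of V meet the joint, and the last has no stop codon in the stretch shown.
Autonomy TRBV4–TRBJ2-2: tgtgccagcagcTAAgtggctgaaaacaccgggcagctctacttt
Autonomy TRBV4–TRBJ2-2, another chain: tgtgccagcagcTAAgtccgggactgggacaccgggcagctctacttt
Turnover TRBV4–TRBJ2-7: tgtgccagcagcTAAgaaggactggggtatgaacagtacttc
Turnover TRBV12-1–TRBJ1-4: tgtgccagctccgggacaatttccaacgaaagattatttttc

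The last set holds productive and unproductive TRBV13-3 chains of the autonomy library with a common start, described further below. Capitals mark 22 bases that the productive chains share from the first base of the V cysteine codon, and the same stretch from its base 3 on in the unproductive chains.
Productive with TRBJ2-1: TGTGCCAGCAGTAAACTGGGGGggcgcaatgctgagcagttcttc
Productive with TRBJ2-4: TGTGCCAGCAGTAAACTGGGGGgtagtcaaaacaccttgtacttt
Productive with TRBJ2-5: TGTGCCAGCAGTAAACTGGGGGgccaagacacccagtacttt
Unproductive with TRBJ2-1: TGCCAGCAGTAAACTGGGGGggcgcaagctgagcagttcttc
Unproductive with TRBJ2-3: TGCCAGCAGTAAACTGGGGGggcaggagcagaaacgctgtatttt
Unproductive with TRBJ2-4: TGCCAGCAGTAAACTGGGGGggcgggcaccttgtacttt

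Unproductive chains made up 31.8% of TRB contigs with V and J in autonomy (interval 30.5 to 33.1%) and 12.7% in turnover (11.8 to 13.7%), a ratio of 2.50 (2.30 to 2.73). The same direction held for distinct chains, with 28.0% unproductive in autonomy and 9.46% in turnover, and for UMIs, with 14.4% and 6.15%. Over distinct chains with a CDR3 alone the shares were 19.1% and 6.33%. Per cell, 34.9% of autonomy barcodes and 13.3% of turnover barcodes carried an unproductive TRB contig, while 76.7% and 89.2% carried a productive one. Both libraries had many barcodes, and the autonomy library had fewer UMIs in its contigs (105865) than the turnover library (177475). Restricting the count to contigs with at least 5 UMIs lowered the unproductive share to 20.7% in autonomy and 8.99% in turnover, and the order of the conditions stayed.

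Unproductive contigs were shallower than productive ones in both conditions. Their median depth was 4 UMIs in autonomy (quartiles 3 and 7, highest 138) against 14 for productive contigs of that library, and 6 UMIs in turnover (quartiles 3 and 14, highest 224) against 18. Within barcodes that held both, the unproductive contig had fewer UMIs than the productive one in 524 of 780 autonomy barcodes (67.2%, interval 63.8 to 70.5%) and in 305 of 388 turnover barcodes (78.6%, 74.2 to 82.6%). The medians in these barcodes were 5 UMIs for the unproductive and 9 for the productive contig in autonomy, and 5 and 10 in turnover. For chains out of frame the share with fewer UMIs was 79.7% in autonomy and 89.8% in turnover. In autonomy an unproductive contig had a median of 4 UMIs without a productive chain in its barcode and 5 beside one, whereas in turnover the medians were 13 without a productive chain and 5 beside one. The turnover contigs include 115 in frame without a stop codon, described below. These had a median of 14 UMIs, and 29 of their 115 barcodes held a productive chain. Turnover contigs out of frame had a median of 3 UMIs.

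Every contig of both tables was called a cell and of high confidence. The constant segment was called TRBC2 for 5216 of 5223 autonomy and 4687 of 4688 turnover TRB contigs with V and J, and TRBC1 for none, although the gene expression libraries held Trbc1 UMIs (values below), so the C call was not used. The V(D)J tables shared 27 barcode sequences between the conditions, none of them with the same TRB chain, and no unproductive chain occurred in both libraries. At least 3 distinct TRB chains were found in 70 of 3934 autonomy barcodes with TRB (1.78%) and in 33 of 3992 turnover barcodes (0.827%). Among barcodes with an unproductive chain these shares were 4.21% and 4.23%. A droplet with more than 1 cell and a cell with more chains cannot be told apart here.

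Junctions were read by placing 12 bases of the V segment, from its cysteine codon on, and the last 12 CDR3 bases of the J segment on each CDR3. Both were the most frequent such bases in productive chains of that segment. Chains out of frame made up 34.6% of unproductive contigs in autonomy (574 of 1660) and 19.7% in turnover (117 of 595). In-frame junctions with a stop codon were few, 3.13% of autonomy and 5.55% of turnover contigs. In-frame junctions with no stop codon in the CDR3 made up 5.30% in autonomy (88 contigs) and 19.3% in turnover (115 contigs). The largest class had no CDR3 given, 56.1% in autonomy and 54.6% in turnover, and 14 autonomy and 5 turnover contigs could not be placed.

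**Figure D1:**
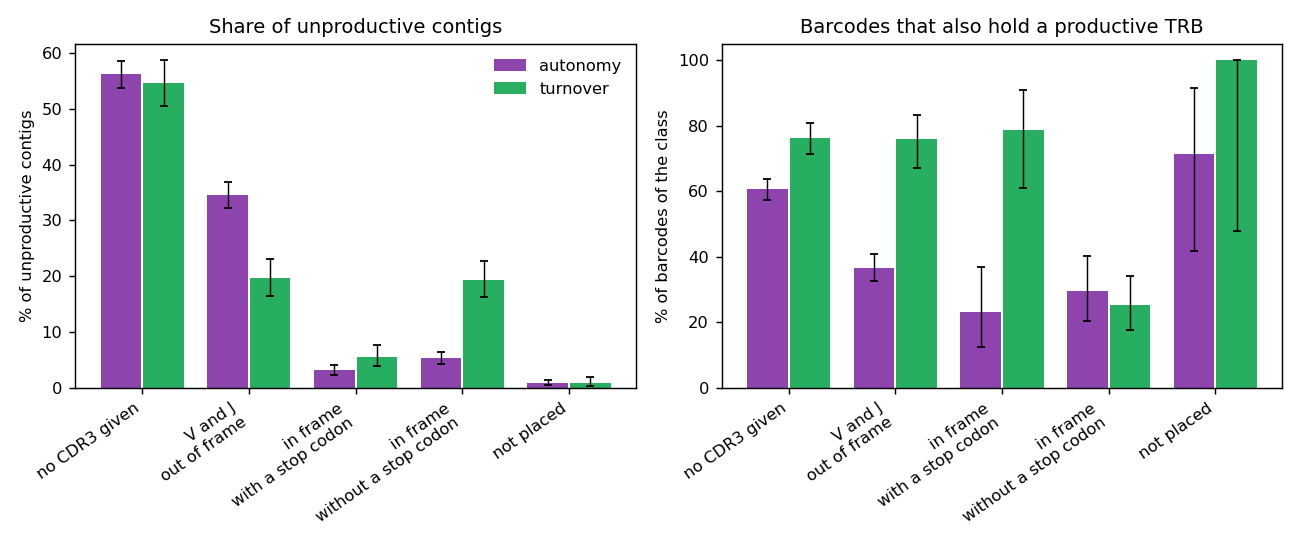
Left, the share of unproductive TRB contigs (%) in each junction class, and right, the share of barcodes of each class (%) that also held a productive TRB chain, for autonomy and turnover. Bars are shares and error bars exact binomial 95% intervals. Out-of-frame chains sat beside a productive chain in 36.6% of autonomy and 75.9% of turnover barcodes, and in-frame chains without a stop codon in 29.5% and 25.2%. Of the 565 autonomy barcodes with an out-of-frame chain, 182 held a single TRBV4–TRBJ2-3 chain.

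Per distinct chain with a placed CDR3, junction lengths that are a multiple of 3 bases made up 25.5% in autonomy and 55.8% in turnover, lengths with 1 base over made up 28.1% and 20.4%, and lengths with 2 bases over made up 46.4% and 23.8%. Most in-frame chains without a stop codon in turnover used TRBV12-1. This segment, at chr6:41113567-41114067 of mm10, supplied 96 of the 115 turnover contigs in frame without a stop codon and 31 of the 88 in autonomy. The TRBV12-1 contigs of this kind were longer than productive TRBV12-1 contigs, with a median length of 776 bases against 671 in autonomy and 785 against 668 in turnover. The same distinct chain was called unproductive in one barcode and productive in another for 14 autonomy chains and 2 turnover chains. Of these, 11 and 2 used TRBV12-1, and all of those had the longer median contig under the unproductive call, by a median of 104 bases in autonomy and 113 in turnover. These chains were also deep, with a median of 14 UMIs over all turnover contigs in frame without a stop codon, against 3 UMIs for turnover contigs out of frame. The turnover TRBV12-1–TRBJ1-4 chain printed above had 85 UMIs. In autonomy the class also held 32 TRBV1 contigs and 23 contigs called TRBV24*02.

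The productive call and the junction reading parted in the other direction as well. Of contigs called productive, 272 in autonomy (7.63%) and 36 in turnover (0.880%) read out of frame between V and J, with medians of 3 and 4 UMIs. In autonomy 209 of the 272 used TRBV13-1 and 45 used TRBV13-2, and in turnover 14 and 11 of the 36 did. All these out-of-frame contigs count as productive in the segment use and as productive partners below. Without them the share of autonomy barcodes with an unproductive chain that also held a productive one was 44.8% in place of 52.9%.

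Stop codons gathered in TRBV4 (chr6:41059443-41059886). Among distinct unproductive chains with a placed V, a stop in the V frame lay inside the CDR3 of 26 of 34 TRBV4 chains in autonomy (76.5%, interval 58.8 to 89.3%) and of 35 of 53 in turnover (66.0%, 51.7 to 78.5%). For all other V segments together the counts were 20 of 158 (12.7%) in autonomy and 34 of 212 (16.0%) in turnover. The stop sat at bases 13 to 15, counted from the first base of the V cysteine codon, in 23 of 34 TRBV4 chains in autonomy and 33 of 53 in turnover, against 3 of 158 and 3 of 212 for other segments. Productive TRBV4 chains, all read in frame, had a stop there in 0 of 29 in autonomy and 0 of 237 in turnover. The productive call excludes such a stop, so these counts are no comparison, and productive chains of all segments together also had none. Bases 13 and 14 were TA in 6 of 29 productive TRBV4 chains in autonomy (20.7%) and 23 of 237 in turnover (9.70%). The pattern was seen in both libraries, which shared no unproductive chain.

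V segments were then compared between unproductive and productive contigs of the same library. TRBV4, TRBV24 and TRBV31 had larger shares among unproductive than among productive contigs in both libraries, and TRBV13-2, TRBV2, TRBV3, TRBV5, TRBV19 and TRBV29 had smaller ones. TRBV29 was not lower in autonomy over distinct chains, a count that includes pairs without a CDR3. Called means a ratio of shares of at least 2 in a segment with 20 or more contigs. In autonomy 6 of 20 V segments were called higher (30%) and 6 lower (30%). In turnover 3 of 20 were called higher (15%) and 5 lower (25%). With so large a part of all segments called, a call of its own says little, and the segments are given by their values.

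TRBV4 made up 22.2% of unproductive contigs in autonomy (369 of 1660) against 2.83% of productive ones (101 of 3563), a ratio of 7.84 (6.34 to 9.70). Without the chain in 182 barcodes it was 12.7% against 2.83%, a ratio of 4.46 (3.53 to 5.64). In turnover TRBV4 made up 10.4% of unproductive contigs (62 of 595) against 5.84% of productive ones (239 of 4093), a ratio of 1.78 (1.37 to 2.33). TRBV24 (chr6:41218091-41218557) was rare among productive contigs and more frequent among unproductive ones in both libraries: 4.82% against 0.505% in autonomy, a ratio of 9.54 (5.74 to 15.9), and 6.22% against 0.586% in turnover, a ratio of 10.6 (6.39 to 17.6). Without in-frame chains lacking a stop codon, and with the productive side unchanged, these ratios were 7.18 (4.24 to 12.2) and 9.95 (5.8 to 17.0). Every productive TRBV24 contig read in frame, 7 in autonomy and 19 in turnover, was called TRBV24*01, with a median of 1 UMI in each library. Contigs called TRBV24*02 and read in frame without a stop codon, 23 in autonomy and 9 in turnover, were all called unproductive. The part of these calls in the TRBV24 ratios was not tested. TRBV31, which lies beyond the J segments at chr6:41557693-41558371 and joins by inversion, made up 11.9% against 5.47% in autonomy and 10.3% against 3.91% in turnover, ratios of 2.17 (1.79 to 2.62) and 2.62 (1.98 to 3.48). No CDR3 was given for 160 of the 197 unproductive TRBV31 contigs in autonomy and 46 of the 61 in turnover. Their joint is unknown, no productive contig is of this kind, and their part in the TRBV31 ratios was not tested. These 3 segments kept a ratio above 1 when each distinct chain was counted once: TRBV24 had ratios of 5.50 in autonomy and 9.58 in turnover, TRBV4 had 3.54 and 2.42, and TRBV31 had 1.73 and 1.67.

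By contigs, TRBV15 and TRBV12-1 were each called higher in a single library. TRBV15 (chr6:41141211-41141658) made up 11.5% of unproductive contigs in autonomy against 2.30% of productive ones, a ratio of 5.0 (3.89 to 6.43), and 6.55% against 4.91% in turnover, a ratio of 1.34 (0.958 to 1.86). Over distinct chains its autonomy ratio was 1.38 (0.834 to 2.28), and most of its contigs there belonged to the TRBV15–TRBJ2-7 pair. TRBV12-1 made up 24.9% of unproductive contigs in turnover against 6.47% of productive ones, a ratio of 3.84 (3.20 to 4.61), and 3.25% against 3.20% in autonomy. Over distinct chains TRBV12-1 was called higher in both libraries, with ratios of 2.13 (1.26 to 3.59) in autonomy and 4.25 (3.5 to 5.17) in turnover. Without the in-frame chains lacking a stop codon its contig ratio was 0.457 (0.293 to 0.713) in autonomy, which is called lower, and 1.67 (1.26 to 2.22) in turnover. TRBV17 and TRBV20 were called higher in autonomy, with ratios of 2.68 (1.74 to 4.14) and 2.15 (1.46 to 3.16), but over distinct chains these were 1.14 (0.501 to 2.60) and 0.963 (0.502 to 1.85). For TRBV17 the unproductive side of that count was 2 chains with a CDR3 and 6 pairs without one. Of segments that were not called, TRBV13-1 and TRBV13-3 were among the 5 most used in unproductive contigs of autonomy. TRBV13-1 made up 8.80% against 11.3%, a ratio of 0.780 (0.651 to 0.933), and TRBV13-3 made up 6.57% against 6.15%, a ratio of 1.07 (0.855 to 1.33) that was 0.479 (0.309 to 0.741) over distinct chains. No CDR3 was given for 130 of the 146 unproductive TRBV13-1 contigs and 81 of the 109 unproductive TRBV13-3 contigs. Of the 402 productive TRBV13-1 contigs in autonomy 209 read out of frame and 193 in frame. The smaller TRBV13-1 share among unproductive contigs rests on these 209.

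Among segments with smaller shares, TRBV13-2 (a segment used often in productive chains) made up 1.63% of unproductive contigs against 14.5% of productive ones in autonomy, a ratio of 0.112 (0.0766 to 0.165), and 2.18% against 10.8% in turnover, a ratio of 0.202. TRBV2, TRBV3 and TRBV29 were also called lower in both libraries, with autonomy ratios of 0.168, 0.184 and 0.243 and turnover ratios of 0.408, 0.411 and 0.444. Over distinct chains the autonomy ratios were 0.680 (0.330 to 1.40) for TRBV2, 0.314 for TRBV3 and 1.10 (0.509 to 2.38) for TRBV29, so that TRBV3 alone of the 3 was still called there. The unproductive side of that count was mostly pairs without a CDR3. For TRBV2 it was 2 chains with a CDR3 and 7 pairs, for TRBV3 1 and 5, and for TRBV29 3 and 6. The part of the pairs in these ratios was not tested. Without the in-frame chains lacking a stop codon none of the 3 was called in turnover, at 0.506, 0.510 and 0.550. RefSeq annotates TRBV29 as a pseudogene, although 221 autonomy and 124 turnover productive contigs were called with it. TRBV5 and TRBV19 had ratios of 0.441 and 0.477 in autonomy and 0.543 and 0.540 in turnover. Counting distinct chains, 3 of 19 V segments were called higher (15.8%) and 4 lower (21.1%) in autonomy, and 3 of 20 higher (15%) and 6 lower (30%) in turnover.

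**Figure D2:**
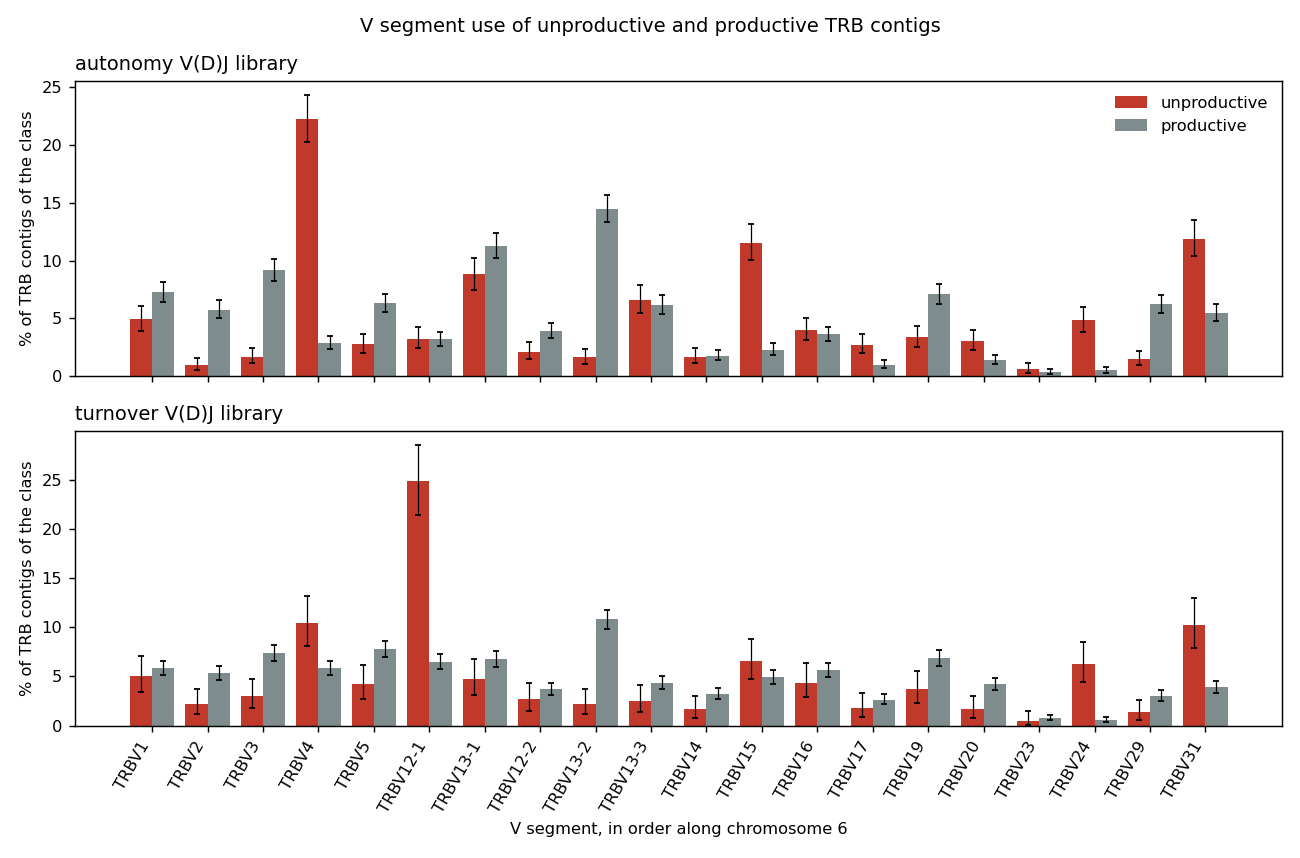
Share of unproductive and productive TRB contigs (%) that used each V segment, in order along chromosome 6, for autonomy (top) and turnover (bottom); error bars are exact binomial 95% intervals. TRBV4 (22.2% of unproductive against 2.83% of productive contigs) stands out in autonomy and TRBV12-1 (24.9% against 6.47%) in turnover, while TRBV13-2 has the smaller unproductive share in both.

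Among J segments, TRBJ2-6 (chr6:41543598-41543645), a pseudogene in the RefSeq annotation, was found in 24 unproductive contigs in autonomy and 23 in turnover and in no productive contig of either library. Set against a floor of 3 contigs among the productive ones, its share was at least 17.2-fold higher in autonomy and at least 52.7-fold higher in turnover. These folds rest on the floor. A contig with this pseudogene may be barred from a productive call, which was not tested, so the counts are no comparison of use. By the same rule of 2-fold and 20 contigs, 3 of 12 J segments were called higher (25%) and 4 lower (33.3%) in autonomy, and 1 of 13 higher (7.69%) and 1 lower (7.69%) in turnover. TRBJ2-6 is among the 3 in autonomy and is the 1 called higher in turnover. TRBJ1-2 had ratios of 3.18 (2.03 to 5.0) in autonomy and 1.94 (1.52 to 2.48) in turnover. TRBJ2-3 made up 25.2% of unproductive contigs against 8.42% of productive ones in autonomy, and 9.92% against 9.06% in turnover. Its autonomy ratio of 2.99 (2.61 to 3.43) was 1.90 (1.62 to 2.22) without the chain in 182 barcodes and 1.57 (1.13 to 2.17) over distinct chains, neither of them called. TRBJ1-5 made up 0.241% against 3.26% in autonomy and 4.87% against 3.74% in turnover. TRBJ1-1, TRBJ1-4 and TRBJ2-4 were called lower in autonomy, with ratios of 0.283, 0.327 and 0.496, and had ratios of 0.623, 0.670 and 0.862 in turnover. Over distinct chains their autonomy ratios were 1.03 (0.457 to 2.31), 0.546 (0.279 to 1.07) and 0.766 (0.543 to 1.08), and none was called. Other much used J segments were not called. TRBJ2-7 had ratios of 1.24 in autonomy and 1.06 in turnover, TRBJ2-5 had 0.678 and 0.785, and TRBJ2-1 had 1.18 in each. Over distinct chains the autonomy ratio of TRBJ2-7 was 0.692 (0.524 to 0.914).

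The TRBJ1 cluster lies upstream of the TRBJ2 cluster, and a TRBJ1 joint can be replaced by a later TRBJ2 joint. TRBJ1 segments made up 7.05% of unproductive contigs in autonomy (interval 5.86 to 8.39%) and 35% in turnover (31.1 to 38.9%). Productive contigs had TRBJ1 in 11.3% in autonomy and 38.6% in turnover. Counting each distinct chain once, unproductive and productive chains had 17.0% and 13.8% TRBJ1 in autonomy, and 38.6% and 38.7% in turnover. The autonomy intervals overlapped (13.1 to 21.5% and 11.5 to 16.4%), and pairs without a CDR3 counted on the unproductive side alone. TRBJ1 use was thus lower in autonomy among unproductive and among productive chains.

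TRBD2 lies downstream of the TRBJ1 cluster, so that a TRBJ1 joint normally holds TRBD1. TRBD2 was called in 10 of 117 unproductive TRBJ1 contigs in autonomy (8.55%) and in 9 of 208 in turnover (4.33%). Among unproductive TRBJ2 contigs it was called in 41.0% and 51.4%.

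Unproductive chains recurred between barcodes in autonomy, and no such chain was seen in turnover. In autonomy 605 of 705 barcodes that held an unproductive chain with a CDR3 (85.8%, interval 83.0 to 88.3%) shared it with another barcode, and in turnover 0 of 267 did, which allows a share of up to 1.37%. Of the 197 distinct autonomy chains 87 occurred in 2 or more barcodes, and of the 270 turnover chains none did. Productive chains were shared by 85.4% of autonomy and 4.67% of turnover barcodes that held one. Within autonomy the shares for unproductive and productive chains lay within each other's intervals.

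**Figure D3:**
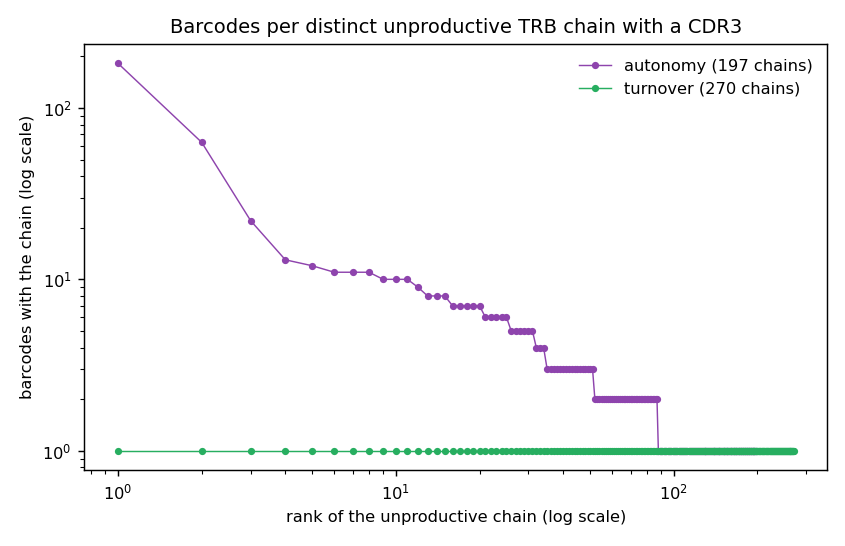
Number of barcodes that held each distinct unproductive TRB chain with a CDR3, ranked by that number, for autonomy (197 chains) and turnover (270 chains), both axes on a log scale. Autonomy chains run from 182 barcodes down to 1, and every turnover chain sits at 1 barcode.

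The sizes in autonomy were uneven. In all, 110 chains were in 1 barcode, 36 in 2, 40 in 3 to 9, 9 in 10 to 49 and 2 in 50 or more. The TRBV4–TRBJ2-3 chain, out of frame and with a stop after the V segment, was in 182 barcodes with a median of 3 UMIs (1 to 10). It had 1 UMI in 31 barcodes and at least 5 UMIs in 35 (19.2%). The TRBV15–TRBJ2-7 chain, also out of frame, was in 63 barcodes with a median of 5 UMIs (1 to 17) and had at least 5 UMIs in 32 of them (50.8%). Other chains, with 1 larger chain not reported here, were TRBV20–TRBJ1-2 in 13 barcodes, TRBV17–TRBJ2-7 in 12, TRBV1–TRBJ2-2, TRBV4–TRBJ2-4 and TRBV4–TRBJ2-5 in 11 each, and 3 chains in 10 each. Among contigs without a CDR3 the same V and J pair recurred too, led by TRBV13-1–TRBJ2-4 in 83 autonomy barcodes, TRBV15–TRBJ2-7 in 63 and TRBV31–TRBJ2-1 in 59, whereas the most frequent such pair in turnover was in 8. Without a CDR3 a shared V and J pair does not show a shared joint.

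A productive TRB partner was found in 780 of 1474 autonomy barcodes with an unproductive chain (52.9%, interval 50.3 to 55.5%) and in 388 of 568 turnover barcodes (68.3%, 64.3 to 72.1%). The ratio was 0.775 (0.720 to 0.834). Seen from the productive side, 24.1% of autonomy and 10.2% of turnover barcodes with a productive TRB also held an unproductive one. The partner share differed between junction classes. Out-of-frame chains had a productive TRB beside them in 36.6% of autonomy barcodes (32.7 to 40.8%) and 75.9% of turnover barcodes (67.0 to 83.3%), and chains in frame with a stop codon in 23.1% and 78.8%. Of the 565 autonomy barcodes with an out-of-frame chain, 182 held the single TRBV4–TRBJ2-3 chain, with a productive TRB in 33 of them. For chains in frame without a stop codon the shares were 29.5% and 25.2%, so leaving them out raised the turnover share to 77.8%.

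Barcodes with 2 or more distinct unproductive chains numbered 181 in autonomy (12.3% of those with any) and 26 in turnover (4.58%). A productive TRB was also found in 39 of the 181 (21.5%) and in 8 of the 26 (30.8%). A productive alpha chain (TRA), which is rearranged after the beta chain, was found in 41.2% of barcodes with an unproductive TRB in each condition. In autonomy it was found in 36.9% of barcodes with an unproductive TRB only (256 of 694), 45.0% of those with both and 47.6% of those with a productive TRB only. In turnover the shares were 40.6%, 41.5% and 43.1%.

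In autonomy many unproductive chains recurred beside the same productive chain. Of the 87 shared unproductive chains, 32 had a productive TRB in at least 2 barcodes, and 21 of these 32 had the same single productive chain in every such barcode. The most frequent partner covered 139 of their 191 barcodes with a productive TRB. A further 36 shared chains had a productive TRB in no barcode. The TRBV20–TRBJ1-2 chain lay beside a TRBV4–TRBJ2-5 productive chain in 13 of 13 barcodes, and a TRBV4–TRBJ2-3 chain in 10 barcodes lay beside TRBV2–TRBJ2-7 in all 10. The TRBV4–TRBJ2-4 chain in 11 barcodes had a productive TRB in 6, each time TRBV12-2–TRBJ2-2.

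**Figure D4:**
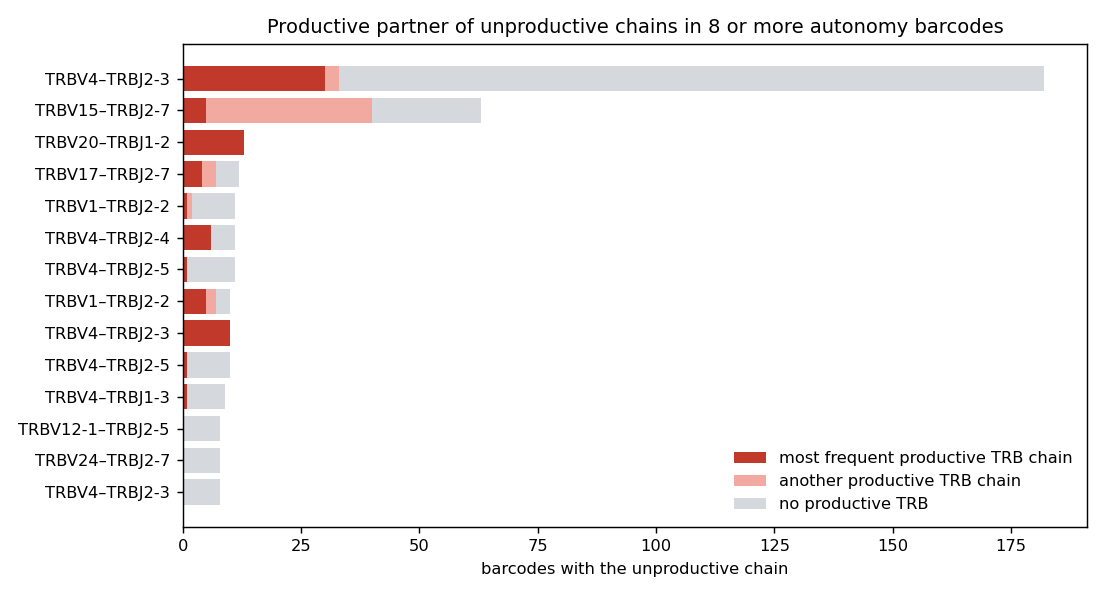
Barcodes (count) that held each plotted unproductive chain found in 8 or more autonomy barcodes, split by whether the barcode also held the chain's most frequent productive TRB partner, another productive TRB, or none. TRBV20–TRBJ1-2 had 1 partner in 13 of 13 barcodes, TRBV4–TRBJ2-3 had no productive TRB in most of its 182 barcodes, and TRBV15–TRBJ2-7 was the chain with many partners.

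The largest chain, TRBV4–TRBJ2-3, had a productive TRB in 33 of 182 barcodes (18.1%, interval 12.8 to 24.5%), and in 30 of the 33 it was a single TRBV19–TRBJ2-4 chain. That productive chain was in 58 barcodes, of which 36 held an unproductive TRB. A productive TRA lay in 64 of the 182 barcodes. In 24 of them a further unproductive TRBV4–TRBJ2-3 contig without a CDR3 was listed.

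Seen from the productive clones, the share of cells with an unproductive TRB varied widely. Over the 69 productive autonomy chains in 10 or more barcodes it ran from 0 to 92.9%, with a median of 18.2%. At least 50% of barcodes carried an unproductive TRB for 13 of these chains and under 5% for 16. Among the 13, TRBV13-1–TRBJ2-4 (50%), TRBV13-1–TRBJ2-7 (60%) and TRBV13-1–TRBJ1-5 chains (76.6% and 64.3%) read out of frame. For the TRBJ2-4 and TRBJ2-7 chains the most frequent unproductive contig had the same V and J and no CDR3, in 21 and 7 barcodes. There, 1 joint listed under both calls cannot be told apart from separate joints. The TRBV2–TRBJ2-7 chain carried one in 13 of 14 barcodes, while TRBV13-2–TRBJ2-4 carried one in 9 of 192 (4.69%) and TRBV29–TRBJ2-5 in 4 of 186 (2.15%). No turnover chain reached 10 barcodes.

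The TRBV15–TRBJ2-7 chain differed from this pattern, as its 40 barcodes with a productive TRB held 27 distinct productive chains, 19 of them in 1 barcode each. The productive chains were alike at their start. Of the 27 partners 23 used TRBV13-3, and 22 (81.5%, interval 61.9 to 93.7%) began with the same 22 bases, tgtgccagcagtaaactggggg, the start marked in the TRBV13-3 set above. These 22 chains continued into 5 different J segments, and 36 of the 40 barcodes (90.0%, 76.3 to 97.2%) held one of them. This comparison was chosen after the partners had been seen.

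In the whole autonomy library 78 of 118 distinct productive TRBV13-3 chains (66.1%) began with these bases. They lay in 146 of 3240 barcodes with a productive TRB (4.51%), used 6 TRBJ2 segments, from 6 chains each for TRBJ2-2 and TRBJ2-3 to 21 for TRBJ2-5, and the most frequent of them was in 12 barcodes. The next most frequent 22-base start in that library was in 6 distinct chains. In turnover 0 of 178 productive TRBV13-3 chains had the start, which allows a share of up to 2.05%, and the most frequent 22-base start there was in 11 distinct chains.

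The unproductive TRBV15–TRBJ2-7 rearrangement, with or without a CDR3, lay in 75 of the 146 autonomy barcodes with this start (51.4%, interval 43.0 to 59.7%) and in 11 of 3094 other barcodes with a productive TRB (0.356%, 0.178 to 0.635%). The 36 barcodes of the chain whose productive TRB has the start are among the 75, and the start was read from their partners. In turnover 3 barcodes held an unproductive TRBV15–TRBJ2-7 contig. A further 5 unproductive TRBV13-3 chains of autonomy, of 15 with a CDR3, carried bases 3 to 22 of the same start. They were all out of frame, lay in 7 barcodes and used TRBJ2-1, TRBJ2-3 and TRBJ2-4. The same run of bases was thus followed by several J segments, in frame and out of frame.

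To see which cells held unproductive chains, barcodes were joined to the gene expression libraries, where 4397 autonomy and 4194 turnover cells passed the filters. Unproductive TRB only was found in 690 autonomy cells (15.7%) and 175 turnover cells (4.17%). Both kinds were found in 774 (17.6%) and 384 (9.16%), and productive TRB only in 2429 (55.2%) and 3327 (79.3%). Gene levels are in CPM, a gene's UMIs summed over the cells of a class and scaled to the same class total, and ratios carry exact intervals. With 1 library per condition these ratios compare cells of 1 library and have no test. Called means at least 2-fold among genes with 100 or more UMIs over both classes.

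In autonomy, cells with an unproductive TRB only had at least 2-fold more Ptcra and Notch1 than cells with a productive TRB, at least 2-fold less of Il7r, and at least 2-fold less of 5 of 7 tested genes of selection and maturation. Of the 6 tested DN3 genes, Ptcra and Notch1 were the 2 called higher. Ptcra, the pre-T alpha chain, was at 692 CPM in cells with an unproductive TRB only and 267 CPM in cells with a productive TRB, a ratio of 2.59 (2.44 to 2.74). Notch1, the receptor that drives early T cell development, was at 303 and 145 CPM, a ratio of 2.09 (1.92 to 2.27). Il2ra, the CD25 chain that marks DN3 cells, was at 176 and 89.4 CPM, a ratio of 1.97 (1.77 to 2.20). Dtx1, a Notch target, had a ratio of 1.60 (1.48 to 1.72). The coreceptor genes were level, with Cd4 at 562 and 561 CPM and Cd8a at 2287 and 2390 CPM, and both genes of the double positive label were thus present in either class.

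Genes that mark TCR signalling and later maturation were lower in these cells. Itm2a was at 59.9 CPM in cells with an unproductive TRB only and 263 CPM in cells with a productive TRB, a ratio of 0.228 (0.193 to 0.267). Cd5, which tracks TCR signal strength, was at 78.8 and 258 CPM, a ratio of 0.306 (0.265 to 0.351), and Cd69, an activation marker, had a ratio of 0.304 (0.237 to 0.385). S1pr1 and Klf2, of thymic exit, had ratios of 0.446 (0.270 to 0.70) and 0.484 (0.395 to 0.588), and Ccr7 had 0.634 (0.497 to 0.799). Without the TRBV4–TRBJ2-3 chain the S1pr1 and Klf2 ratios were 0.512 and 0.534 and no longer called. Trbc1, a constant region gene, was at 129 and 526 CPM (0.246, 0.220 to 0.274), while Trbc2 was at 1986 and 1961 CPM (1.01, 0.983 to 1.04). These genes are near copies, so how the authors' counting split their reads is uncertain. Trac, the alpha constant gene, had a ratio of 0.503 (0.435 to 0.581). Over all 8829 genes tested, 81 were called higher (0.917%) and 216 lower (2.45%), with a median log2 ratio of 0.02.

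By list, 2 of 6 tested DN3 genes were called higher (Ptcra and Notch1) and Il7r, the interleukin-7 receptor, was called lower at 0.473, with a summed level of 1528 CPM in cells with an unproductive TRB only and 740 CPM in cells with a productive TRB. Of 7 genes of selection and maturation 5 were called lower and none higher (388 and 925 CPM). None of the 7 ISP and double positive genes was called, and their summed level was 8730 and 8396 CPM. None of the 11 tested genes of the recombination machinery was called, but Rag1, Rag2 and Dntt had ratios of 1.24, 1.21 and 1.30. None of the 12 genes of nonsense-mediated decay was called, with a summed ratio of 1.04 (1.0 to 1.08). The 6 cycling genes had a summed ratio of 1.41 (1.35 to 1.47), with none called, and Mki67 and Top2a at 1.69 and 1.61. Of other cell types, the summed macrophage level was 166 CPM in cells with an unproductive TRB only and 101 CPM in cells with a productive TRB, with Lyz2 called higher among 6 tested genes at 52.1 and 21.0 CPM. The B cell level was 442 and 406 CPM with Ms4a1 at 0, and of the natural killer genes Klrd1 and Nkg7 were called lower, with a list level of 283 and 313 CPM and Ncr1 at 0. The dendritic cell level was 58.8 and 57.2 CPM with Siglech at 0, and the part of these cells in the ratios was not tested. Median V(D)J depth was 12 UMIs per cell with an unproductive TRB only and 23 per cell with a productive TRB, at median gene expression depths of 2434 and 2478 UMIs, and the part of V(D)J depth in these ratios was not tested.

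In turnover, cells with an unproductive TRB only had more Il2ra, at 112 CPM against 19.8 CPM in cells with a productive TRB, a ratio of 5.64 (4.21 to 7.43) that was 4.40 with every cell thinned to 1000 UMIs. Ptcra had a ratio of 1.63 (1.29 to 2.05) and Notch1 of 1.66 (1.21 to 2.23), and Notch1 was at 0.906 after thinning, on the other side of 1. Of the selection genes, Cd5 had a ratio of 1.29 (1.02 to 1.60), Cd69 of 1.12 (0.746 to 1.62) and Itm2a of 0.580 (0.413 to 0.792), and after thinning Cd5 was at 0.746 and Cd69 at 0.828. Mki67 and Top2a were lower, with ratios of 0.584 (0.472 to 0.715) and 0.637 (0.550 to 0.733), where autonomy had ratios above 1. Tcrg-C1, a gamma chain constant gene, had a ratio of 2.89 (1.84 to 4.36), and Trbc1 and Trbc2 had ratios of 1.12 and 1.33, with Trbc1 at 0.942 after thinning. Of 8638 genes 258 were called higher (2.99%) and 349 lower (4.04%). The median log2 ratio of 0.10 was -0.07 with TMM scaling, and the cells with an unproductive TRB only were shallower, with a median of 1875 UMIs against 2113. The difference between the libraries was not tested.

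By list in turnover, Il2ra was called higher and Il7r lower (2 UMIs, a ratio of 0.336, 0.0404 to 1.23) among 4 tested DN3 genes (summed 367 and 178 CPM), and Tcrg-C1 and Tcrg-C2 were called higher among 3 tested gamma-delta genes (214 and 118 CPM). None of the 7 ISP and double positive genes and none of the 5 tested selection genes was called. Of the 6 cycling genes Cdk1 and Ccnb1 were called lower (list level 1042 and 1699 CPM), and thinned they were at 0.56 and 0.69. Macrophage genes were too few in UMIs to be tested, at 9.31 and 8.24 CPM in sum, and the dendritic list was at 0 and 8.57 CPM. None of the 11 genes of the machinery and none of the 12 of nonsense-mediated decay was called. The turnover cells included the in-frame chains without a stop codon. These chains lay in 115 turnover barcodes, of which 29 also held a productive TRB, and in autonomy in 88 barcodes, of which 26 did. Whether such chains give a usable beta chain was not tested. Leaving out barcodes with such chains alone gave ratios of 9.33 for Il2ra, 2.18 for Ptcra, 2.46 for Notch1 and 0.311 for Mki67.

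Cells with both kinds of chain were set against cells with a productive TRB only. In autonomy these cells had higher levels of cycling genes and lower levels of late maturation genes. Top2a was at 323 CPM in cells with both and 161 CPM in cells with a productive TRB only, a ratio of 2.0 (1.85 to 2.17), and Mki67 was at 161 and 83.3 CPM, a ratio of 1.93 (1.72 to 2.16). Of the 6 cycling genes Top2a, Cdk1 and Ccnb1 were called higher, with a summed level of 1003 and 588 CPM for the list, although Top2a was at 1.93 and Ccnb1 at 1.28 with cells thinned to 1000 UMIs. Ccr7, S1pr1 and Klf2 had ratios of 0.356, 0.227 and 0.371, of which Ccr7 and Klf2 were at 0.763 and 0.573 when thinned, while Itm2a was level at 1.02 (0.944 to 1.11). Trbc1 had a ratio of 0.222 (0.202 to 0.244) and Trbc2 of 0.762 (0.738 to 0.786). Of 8480 genes 99 were called higher (1.17%) and 65 lower (0.767%).

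In turnover, cells with both had Il2ra at 8.75 CPM and cells with a productive TRB only at 20.8 CPM, a ratio of 0.420 (0.222 to 0.729) that was 0.903 after thinning. Tcrg-C1 had a ratio of 0.316 (0.135 to 0.631), or 0.542 thinned, and the gamma-delta list 0.516 (0.415 to 0.635), with 2 of 3 tested genes called lower. Rag1 had a ratio of 1.40 (1.32 to 1.49), and Top2a of 0.785 (0.725 to 0.848). Trbc1 and Trbc2 were at 0.502 (0.464 to 0.542) and 0.741 (0.713 to 0.770), lower in cells with both as in autonomy. Of 8589 genes 51 were called higher (0.594%) and 87 lower (1.01%).

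**Figure D5:**
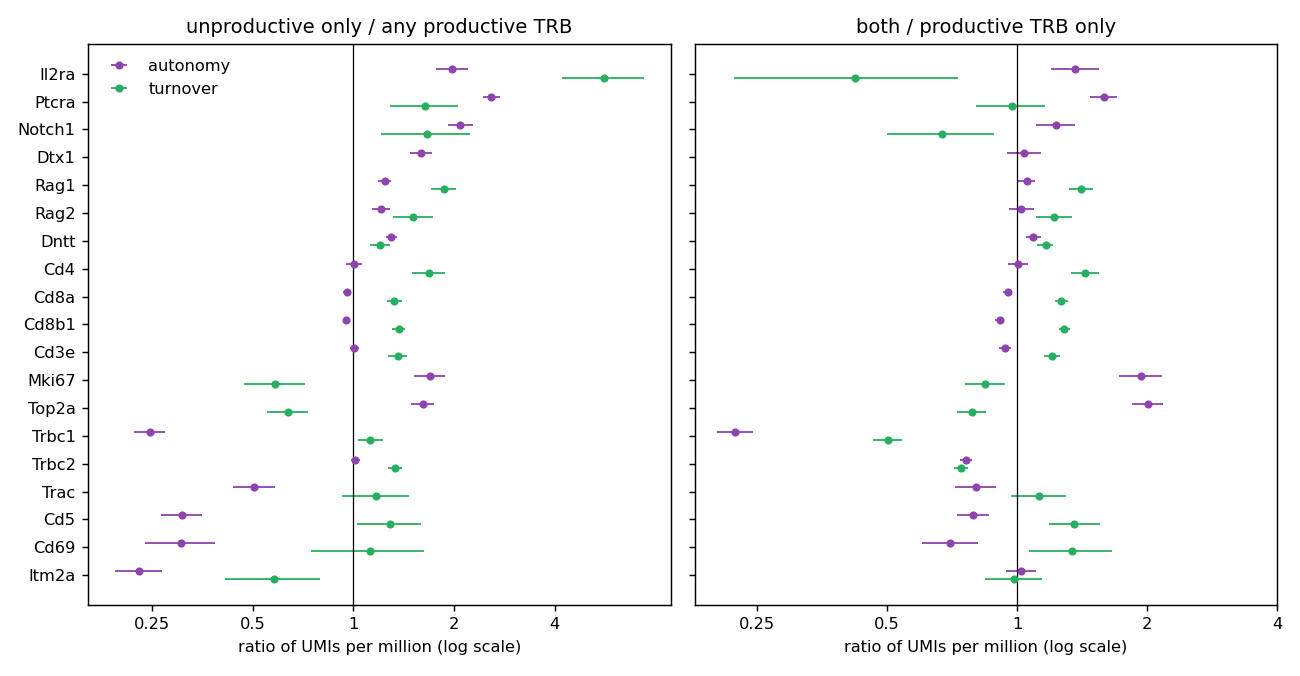
Ratio of CPM (log scale) for cells with an unproductive TRB only over cells with any productive TRB (left) and for cells with both over cells with a productive TRB only (right), in autonomy and turnover; points are ratios and bars exact 95% intervals of the counts, and Dtx1 is shown for autonomy alone. On the left Il2ra lies above 1 in both libraries while Cd5 and Cd69 lie below 1 in autonomy alone (with thinned cells also in turnover, at 0.746 and 0.828), and on the right Trbc1 lies below 1 in both.

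The leading shared chains sat in unlike cells. The 180 cells with the TRBV4–TRBJ2-3 chain had Cd4 at 1027 CPM and Cd8a at 3387 CPM, with Mki67 at 11.3 and Itm2a at 20.3 CPM. The 63 cells with the TRBV15–TRBJ2-7 chain had Cd4 at 400 CPM and Cd8a at 2150 CPM, with Mki67 at 394 and Itm2a at 216 CPM. Within the TRBV15–TRBJ2-7 chain, Ptcra was at 459 CPM in the 23 cells without a productive TRB and 165 CPM in the 40 cells with one, and Trbc1 had no UMI in those 23 cells. Leaving out the TRBV4–TRBJ2-3 chain moved the autonomy Mki67 ratio of cells with an unproductive TRB only to 1.91 from 1.69, and the Ptcra ratio to 2.61 from 2.59.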

How the data were processed

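Thymocytes were profiled with a 10x Genomics 5′ kit and V(D)J enrichment, per the labels' protocols. The submitters' processing notes name Cell Ranger 3.0.2, mm10 and Seurat 3.1.3.9002. The V(D)J reference and the filters used before deposit are not given in the sources used here. The deposited tables hold raw UMI counts per gene and cell barcode, and UMI counts, segment calls, productive calls and CDR3 bases per contig. Total counts were 16388810 gene expression UMIs in autonomy and 20163286 in turnover, over 4587 and 4374 barcodes.

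Groups follow the condition label. The chains and gene lists were chosen with earlier results of these data known. Contigs were counted as deposited with Python 3.11.15, pandas 2.3.3 and scipy 1.17.1. Junctions were placed with the first 12 CDR3 bases of each V segment and the last 12 CDR3 bases of each J segment. These were learned from the productive chains of both libraries, since no germline sequence was used here. The placing of junctions and the gene ratios were tested on simulated data. The simulated junctions kept all 12 bases at the joint side of V and J, so they do not test joints with trimmed bases. Segment positions and types come from the RefSeq gene table of GRCm38.p6, the mm10 build. Cells with under 500 genes, under 1000 UMIs or over 10% mitochondrial UMIs were left out (190 in autonomy and 180 in turnover), and no doublet caller was run. TMM factors came from edgeR 4.0.16 with no test.

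Segments named were those past 2-fold with 20 or more contigs and the 5 most used V and J segments among the unproductive contigs of each library. Chains named first were the 10 in most barcodes, of which 1 is not reported or plotted here, and genes were a fixed list of thymocyte stage and receptor genes. Of that list, Erg had no UMI, Kit had too few UMIs in any class to be tested, and Hes1 and Trdc are in the tables but not described. The shared start, the TRBV4 stop codons and the 2 chains' own gene levels were chosen after their values were seen.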

Additional observations from a re-analysis of the deposited data

Results flagged for a closer look

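The V segment TRBV20 went in opposite directions in the libraries. Its share of unproductive over productive contigs had a ratio of 2.15 in autonomy (50 of 1660 against 50 of 3563) and 0.398 in turnover (10 of 595 against 173 of 4093). In autonomy 13 of the 50 unproductive contigs were the single TRBV20–TRBJ1-2 chain, and over distinct chains the ratio was 0.963 (0.502 to 1.85) in autonomy and 0.336 (0.15 to 0.754) in turnover. The J segment TRBJ1-3 had ratios of 1.77 in autonomy (33 against 40 contigs) and 0.440 in turnover (16 against 250). Over distinct chains these were 1.98 (0.875 to 4.46) and 0.543 (0.320 to 0.921). Each was listed because the libraries lay on opposite sides of 1, and the difference between them was not tested.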

How the results depend on the processing

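Values are given for autonomy and then turnover, and alternatives marked as added were chosen after seeing the data. The unproductive share of contigs (31.8% and 12.7%) was 17.0% and 6.19% with only contigs called False. It was 28.0% and 9.46% over distinct chains, and 19.1% and 6.33% over those with a CDR3. Added, it was 20.7% and 8.99% with at least 5 UMIs. Added too, it was 33.5% in autonomy without productive contigs read out of frame and 10.5% in turnover without in-frame chains lacking a stop codon. The TRBJ1 share of autonomy (7.05%) was 17.0% over distinct chains. The productive TRB partner share was 50% in autonomy with at least 2 UMIs, 44.8% without productive contigs read out of frame and 77.8% in turnover without in-frame chains lacking a stop codon. The TRA partner share (41.2% in each) was 32.4% and 35.4% with at least 2 UMIs. The 12 autonomy V segments past 2-fold were 7 over distinct chains, and the 8 of turnover were 5 without in-frame chains lacking a stop codon. The 7 J segments of autonomy were 1 and the 2 of turnover 0 over distinct chains, and the turnover count was 1 at a minimum of 40 contigs.

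Counts of genes past 2-fold followed the minimum of UMIs and the depth. For cells with an unproductive TRB only, the 81 higher and 216 lower genes of autonomy were 15 and 55 at a minimum of 500 UMIs, 194 and 448 at 25, and 30 and 68 in thinned cells. The 258 higher and 349 lower of turnover were 18 and 80 at 500, and 593 and 630 without in-frame chains lacking a stop codon, and the higher ones were 863 at 25, 53 in thinned cells and 137 with TMM. For cells with both, the 99 higher and 65 lower of autonomy were 27 and 13 at 500, 169 and 220 at 25, and 9 and 7 in thinned cells. The 51 higher and 87 lower of turnover were 5 and 9 at 500, 190 and 320 at 25, and 8 and 57 in thinned cells, with 26 higher under TMM. Fewer genes are tested at the higher minimum and in thinned cells. The cause of the other shifts was not tested. Some ratios moved across 1. Over distinct chains this held for autonomy TRBV20 (0.963 for 2.15), TRBV29 (1.10 for 0.243) and TRBJ1-1 (1.03 for 0.283). The TRBJ1 share of autonomy, below that of productive contigs (7.05% against 11.3%), had overlapping intervals over distinct chains. These were 13.1 to 21.5% around 17.0% against 11.5 to 16.4% around 13.8%. Of the 324 distinct unproductive chains of autonomy, 127 were V and J pairs without a CDR3. The part of these pairs in the shifts was not tested. In thinned turnover cells Notch1 (0.906), Cd5 (0.746), Cd69 (0.828), Trbc1 (0.942) and Trac (0.953) lay below 1 in place of above it; none of these genes was past 2-fold before. Another minimum of contigs gave no value for the TRBJ1 share. With 1 library per condition no library could be left out. No paired analysis was possible because each condition had 1 library of each kind, numbered in accession order alone.

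Depth limits these chains, as unproductive contigs had medians of 4 and 6 UMIs, so an undetected productive partner cannot be told apart from an absent one. Contigs without a CDR3 (56.1% and 54.6%) cannot be assigned to a joint. Condition, library and animals cannot be told apart.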
